A study of Homo sapiens with 6 samples.

Results

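The mitochondrial ribosomal proteins are the protein part of the ribosome inside mitochondria, and their genes are recognised by the symbols MRPL and MRPS. They were taken here as the protein-coding genes of GENCODE release 44 that have such a symbol and average 10 or more normalised counts across the 6 libraries. This gave 76 genes among the 14684 genes that passed the same filter, out of 37902 in the table. By the subunit that holds the protein, 50 belong to the large subunit and 25 to the small subunit, and the remaining gene, MRPS36, encodes a protein now assigned to the 2-oxoglutarate dehydrogenase complex. The symbols MRPS30 and MRPS18A were counted under the large subunit, where their proteins sit despite the letter S.

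The mitochondrial ribosome translates the mRNAs that the mitochondrial genome encodes, all of which specify subunits of the respiratory chain and of ATP synthase. Its RNA comes from mitochondrial DNA, whereas its proteins are encoded in the nucleus, made in the cytosol and imported. Some of them descend from bacterial ribosomal proteins and others are found in mitochondria but not in bacteria. POLDIP2 itself is found in the nucleus and in the mitochondrial matrix, where it has been linked to the ClpXP protease and to protein lipoylation.

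The libraries come from ARPE-19, a human line established from retinal pigment epithelium (RPE), the pigmented cell layer that supports the photoreceptors. WT is the parental line. The POLDIP2 KO line was derived from it with a lentivirus encoding SpCas9 together with an sgRNA that cuts in the POLDIP2 coding sequence, and was selected with puromycin. Both lines were under regular maintenance and were collected at day 3, with 3 biological replicates each. The labels do not say whether the replicates were separate cultures or whether the KO line is 1 clone, so p-values measure the spread among these libraries, which may be technical, and differences are between these lines.

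The targeted gene was lower in the KO line. POLDIP2 was at 3919, 4827 and 4798 normalised counts in WT replicates 1, 2 and 3, and at 1063, 1248 and 1143 in POLDIP2 KO replicates 1, 2 and 3 (log2 fold change -1.97, limma with Benjamini-Hochberg adjustment, adjusted p = 0.00961). Recovered reads numbered 31532797 to 45795509 per library, and 3 reads, taken as the floor, are worth 2.44 to 3.69 normalised counts. Of the RPE markers, KRT8, KRT18, MITF and OTX2 were expressed in all 6 libraries, whereas RPE65 and TYR were at or under 3 reads in every one. Of 3 endothelial markers, CDH5 was at or under the floor in every library, while PECAM1 reached 7.4 and VWF 41.5 normalised counts, and their sum ranged from 15.7 to 38.7 in WT and from 15.9 to 48.8 in POLDIP2 KO. The summed level of 4 mesenchymal markers ranged from 2136 to 6809 in WT and from 2064 to 14211 in POLDIP2 KO, and its part in the results was not tested.

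Among the promoters, 68 of the 76 genes had an entry in the RefSeq set (GRCh38.p14), each covering 250 bases before the start of transcription and 50 bases after it. The letters CCGGAAGT, a core of the sites bound by GABPA and other ETS factors, were searched on both strands with no mismatch. They occurred in 11 of the 68 promoters (16.2%), and in 4.44% of all 27305 promoters in the set. The stretches of 30 bases with the match nearest the start are given for 8 of these genes, because the same letters recur in them on either strand. The match is in capitals, each stretch is written 5′ to 3′ on the gene's strand, and ACTTCCGG is the same match read from the other strand.
MRPL3, chr3:131502985-131503014, minus strand: tgtaaaacgcaCCGGAAGTgggtccggcgg
MRPL16, chr11:59810767-59810796, minus strand: gagtgaacacaACTTCCGGccccactgagc
MRPL20, chr1:1407319-1407348, minus strand: cgaccttcgccCCGGAAGTatcgcaggggc
MRPL27, chr17:50373174-50373203, minus strand: acttttcgagaCCGGAAGTgagtgatcgaa
MRPL47, chr3:179604659-179604688, minus strand: ggcttgagacgCCGGAAGTgacgctatcgt
MRPL52, chr14:22829870-22829899, plus strand: aggccacgcctACTTCCGGctaccccggct
MRPS22, chr3:139343987-139344016, plus strand: ccctcccaaccACTTCCGGcgcaagtggct
MRPS34, chr16:1773136-1773165, minus strand: ctcttccggtgACTTCCGGccggaccgctg
The other 3 promoters with these letters were those of MRPL38, MRPL51 and MRPL53. By subunit, 9 of 44 large subunit promoters (20.5%) and 2 of 24 small subunit promoters (8.33%) held them.

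A second set of letters lay at the start of the coding sequence. AAGATGGCG, the core of the site bound by YY1, occurred on either strand in 13 of the 68 promoters (19.1%), and in 1.85% of all promoters. In 11 of these genes the letters ran in the direction of the gene, with 12 matches because MRPL52 held them at 2 places. In 9 of the 12 the ATG inside the match is an annotated start codon in GENCODE release 44, as it is in 205 of 363 such matches over all promoters (56.5%). The 9 stretches are given because the same bases span the start codon in genes of both subunits.
MRPL22, chr5:154941093-154941122, plus strand: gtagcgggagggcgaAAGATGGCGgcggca
MRPL38, chr17:75904859-75904888, minus strand: ggccggagggAAGATGGCGgcgccctggtg
MRPL46, chr15:88467361-88467390, minus strand: gggagaacgaAAGATGGCGgcgcccgtaag
MRPL50, chr9:101398576-101398605, minus strand: gatctcatcgAAGATGGCGgcgcgatctgt
MRPS10, chr6:42217833-42217862, minus strand: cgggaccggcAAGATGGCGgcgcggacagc
MRPS18A, chr6:43687763-43687792, minus strand: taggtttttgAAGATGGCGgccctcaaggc
MRPS18B, chr6:30617853-30617882, plus strand: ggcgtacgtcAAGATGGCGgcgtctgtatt
MRPS24, chr7:43869479-43869508, minus strand: cgcttggcccAAGATGGCGgcctccgtgtg
MRPS30, chr5:44808950-44808979, plus strand: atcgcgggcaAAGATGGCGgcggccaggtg
Counted from the start of transcription as base 0, these 9 matches began at bases 6 to 35. The NRF1 letters GCGCATGCG, searched on both strands, were in 3 promoters, those of MRPL17, MRPL22 and MRPS18C (4.41%, against 573 of 27305). The TATA box letters TATAAA were in 2 (2.94%, against 3264 of 27305). No match of one set overlapped a match of another in these promoters. A match describes the sequence and does not show that a factor binds there.

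The question of the main comparison is whether loss of POLDIP2 goes with a change in the mRNAs of the mitochondrial ribosome. None of the 76 genes was called by limma at an adjusted p of 0.05, a level reached by 25 of all 14684 genes (0.170%). At an unadjusted p under 0.05 there were 2 of 76 genes (2.63%), MRPL13, which was higher in POLDIP2 KO, and MRPL14, which was lower, against 6.48% of all genes (3.00% higher and 3.47% lower). The edgeR and DESeq2 tests on the recovered reads called none of the 76 either. Over all 14684 genes edgeR called 17 and DESeq2 called 277, so the 0 is set against different totals in each tool. The differences were narrowly bounded. For 68 of the 76 genes (89.5%) the 95% confidence interval of the change lay within 1.5-fold in either direction. This held for 47.5% of all genes, which were not matched to the 76 by level. The range of fitted log2 fold changes, with MRPL45 left aside, was from -0.24 to 0.55.

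**Figure D1:**
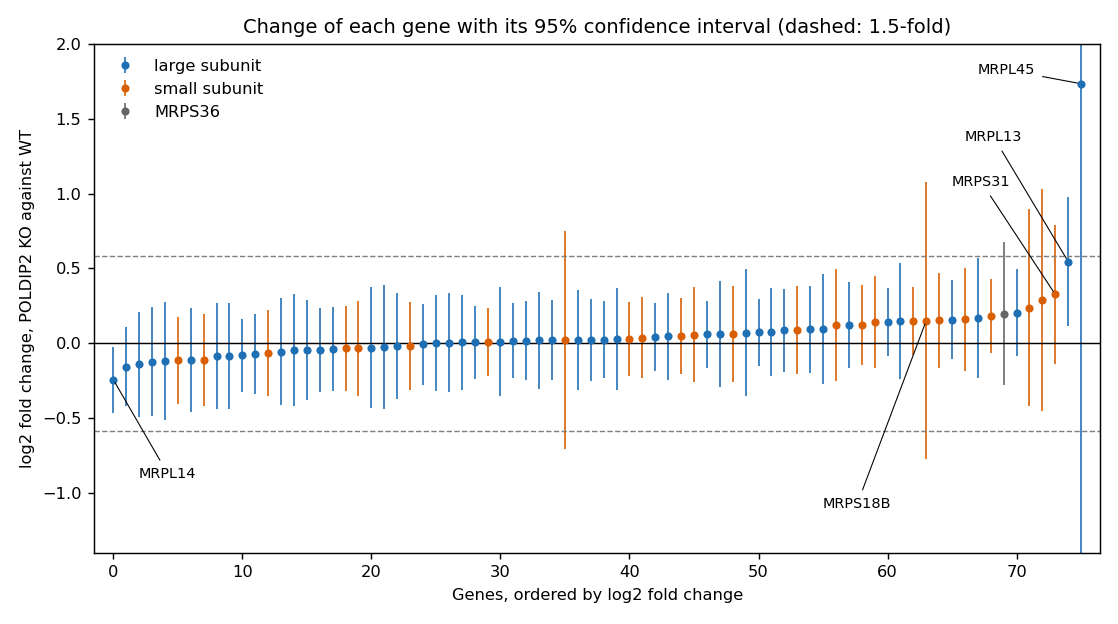
Each point is 1 mitochondrial ribosomal protein gene, ordered by its log2 fold change of POLDIP2 KO against WT (y axis), with the 95% confidence interval of the limma fit over 3 against 3 libraries; colours mark the subunit and dashed lines mark a 1.5-fold change. MRPL14 at -0.24 and MRPL13 at 0.55 are the genes whose interval leaves out 0, and the interval of MRPL45, listed at 0 in 3 libraries, runs past both ends of the axis.

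The group as a whole took nearly the same share of each line's libraries. Its summed normalised counts made up 0.308% ± 0.025 of the WT libraries and 0.309% ± 0.021 of the KO libraries (mean ± SD, n = 3). The single libraries ran from 0.283% to 0.333% in WT and from 0.286% to 0.325% in POLDIP2 KO, so the lines overlapped. In these bulk RNA samples, fewer cells of a kind and less RNA per cell cannot be told apart. The median coefficient of variation between replicates was low for these genes, 9.37% in WT and 8.27% in POLDIP2 KO, against 15.3% and 15.1% over all genes tested. All genes tested were not matched to them by level. The low spread was not particular to them, with 6.46% and 7.79% in nuclear respiratory chain genes. Ribosome assembly and rRNA processing genes were at 9.49% and 8.88%, and cytosolic ribosomal protein genes at 13.1% and 9.90%.

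MRPL13 (ENSG00000172172, chr8:120380761-120445402), a large subunit protein with a bacterial counterpart, had the smallest p-value of the group. It was at 1241, 998 and 1425 normalised counts in WT replicates 1 to 3 and at 1443, 1953 and 1951 in POLDIP2 KO replicates 1 to 3. All KO libraries lay above all WT libraries, though the lowest KO library was close to the highest WT library. The log2 fold change was 0.55 ± 0.18 (SE), with an interval from 0.11 to 0.98 and an adjusted p of 0.571 by limma with Benjamini-Hochberg adjustment. An exact two-sided permutation test over the libraries gave p = 0.1, the smallest it can give with 3 against 3. The 10 tested genes nearest to MRPL13 on chromosome 8, 5 on each side, were looked up after its value was seen. Of these, 7 had a log2 fold change above 0 (against 49.9% of all genes), with a median of 0.34 and a range from -0.57 for ENPP2 to 0.64 for SNTB1. By limma 3 passed an unadjusted p under 0.05 (against 6.48% of all genes), SNTB1 and DERL1 higher and ENPP2 lower. The 3 members on chromosome 8, MRPL13, MRPL15 and MRPS28, had a median of 0.06.

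MRPL14 (ENSG00000180992, chr6:44113451-44127452) lies at the face of the large subunit that meets the small subunit. It was at 2335, 2414 and 2363 normalised counts in the WT libraries and at 2056, 2067 and 1891 in the KO libraries, again with no overlap and with little spread within each line. The log2 fold change was -0.24 ± 0.094 (SE), with an interval from -0.46 to -0.02 (limma, Benjamini-Hochberg adjusted p = 0.698; exact permutation p = 0.1). Neither gene held its unadjusted call in every setting, since leaving out WT replicate 2, POLDIP2 KO replicate 2 or POLDIP2 KO replicate 3 left none of the 76 genes at that level.

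Another 3 genes had KO libraries that all lay above WT without reaching that level. MRPL19, in the large subunit, was at 2652, 2771 and 2725 in WT and at 2793, 3029 and 3174 normalised counts in POLDIP2 KO (log2 fold change 0.14, interval from -0.09 to 0.37). MRPS21, in the small subunit, was at 1811, 1964 and 1798 in WT and at 2293, 2066 and 1979 in POLDIP2 KO (0.18, interval from -0.06 to 0.43). MRPS6, also in the small subunit, was at 2323, 2323 and 2082 in WT and at 2531, 2479 and 2448 in POLDIP2 KO (0.15, interval from -0.08 to 0.38). In each of these the gap between the lines was smaller than the spread within one of them. Lines without overlap were found for 5 of the 76 genes (6.58%, against 10.9% of all genes tested), with 4 higher in POLDIP2 KO (5.26%, against 5.46%) and 1 lower (1.32%, against 5.44%).

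**Figure D2:**
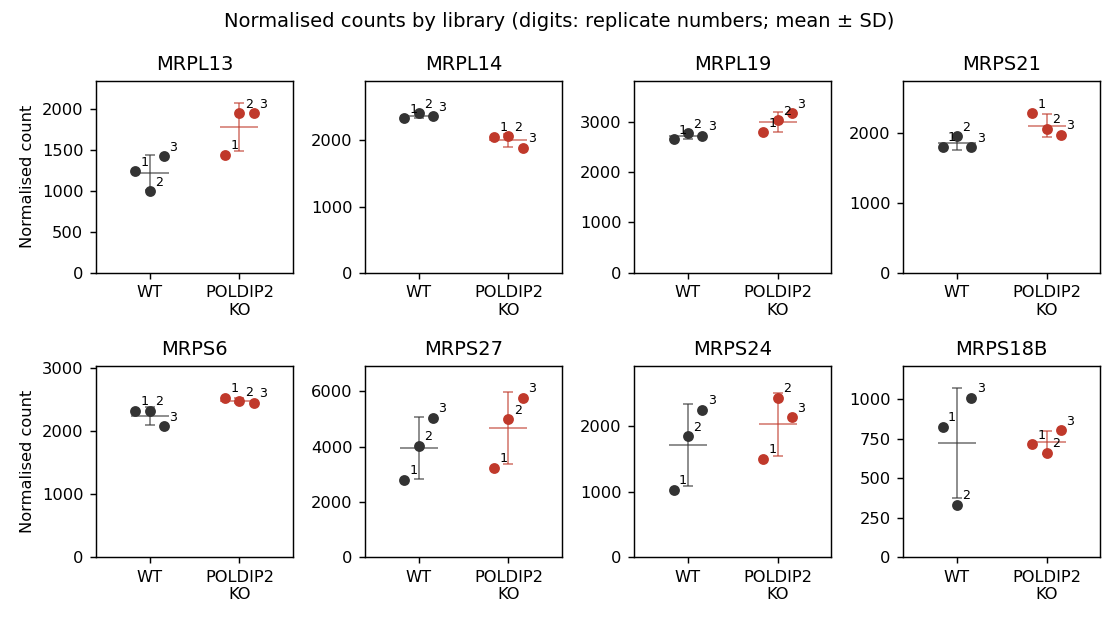
Normalised counts (y axis, starting at 0) of 8 genes in the 3 WT libraries (dark) and the 3 POLDIP2 KO libraries (red), with replicate numbers beside the points and bars for mean ± SD. In the upper row the lines do not overlap, as in MRPL14 with 2335 to 2414 in WT and 1891 to 2067 in POLDIP2 KO, and in the lower row MRPS27 and MRPS24 are lowest in replicate 1 of both lines and MRPS18B is lowest in WT replicate 2.

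Large and small subunit genes were then set side by side. The median log2 fold change was 0.02 over 50 large subunit genes, 0.06 over 25 small subunit genes and -0.00029 over all genes tested, which are descriptions without a test. The fitted change was above 0 in 30 of 50 large and 19 of 25 small subunit genes. Together with MRPS36 this made 50 of the 76 (65.8%), against 49.9% of all genes. The lean was not particular to them, since 66 of 74 cytosolic ribosomal protein genes and 53 of 73 nuclear respiratory chain genes were above 0. In contrast, 15 of 28 ribosome assembly and rRNA processing genes and 7 of 16 mitochondrial translation factors were above 0. The count of 50 varied with the libraries included. Without WT replicate 1, in which many of the 76 genes were low, 38 were above 0 (against 48.8% of all genes), 20 of 50 large and 17 of 25 small. That fit kept POLDIP2 KO replicate 1, in which the median gene also lay below its line's mean. It therefore cannot show that the count comes from 1 library. Leaving out other libraries gave 44 to 58. Within each subunit, genes with a bacterial counterpart and mitochondria-specific genes had similar medians, 0.02 (29 genes) and 0.02 (21 genes) in the large subunit and 0.06 (15 genes) and 0.09 (10 genes) in the small subunit.

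The summed counts and the median levels of the subunits were compared as well. The ratio of large to small subunit counts was 1.81, 1.76 and 1.72 in WT replicates 1 to 3 and 1.75, 1.69 and 1.61 in POLDIP2 KO replicates 1 to 3, or 1.76 ± 0.050 against 1.68 ± 0.070 (mean ± SD, n = 3). The lines overlapped, because POLDIP2 KO replicate 1 lay above WT replicate 3. Within each replicate number the KO library had the lower ratio. The median log2 level of large minus that of small subunit genes went the other way, with the KO library higher within each number. It was -0.29, -0.36 and -0.19 in WT replicates 1 to 3 and -0.26, -0.31 and -0.14 in POLDIP2 KO replicates 1 to 3. The direction thus depended on the measure. Single genes were higher in the KO library of all 3 same-numbered pairs in 23 of 76 cases (30.3%, against 17.0% of all genes). They were 12 of 25 small and 10 of 50 large subunit genes and MRPS36. The opposite held for 5 genes (6.58%, against 15.7%), MRPL9, MRPL14, MRPL24, MRPL33 and MRPL49, all of the large subunit.

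MRPS31 showed the largest fitted change among small subunit genes, and its reads need care. It was at 437, 398 and 597 normalised counts in the WT libraries and at 577, 523 and 681 in the KO libraries (log2 fold change 0.33, interval from -0.14 to 0.79). The KO library was the higher in each same-numbered pair, but the lines overlapped. The pseudogenes MRPS31P5 and MRPS31P4, on the same chromosome, were listed at means of 162 and 139 normalised counts. Both went the other way, with the KO library the lower in each same-numbered pair. The gap was widest in replicate 2, where MRPS31P5 was at 259 in WT and at 146 in POLDIP2 KO. The reads assigned to MRPS31 may have been divided among these genes, so its value and its direction within pairs are uncertain. Whether its change remains when their reads are joined was not tested. Of 77 MRPL and MRPS pseudogenes in the table, 64 were at 0 in every library and MRPS17P1 was the only other with a mean of at least 10 (22.0).

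Among the remaining genes with small p-values, MRPL16, MRPL51, MRPS10, MRPS14 and MRPS35 had log2 fold changes of 0.14 to 0.20 and MRPL49 one of -0.16, with lines that overlapped in every case. Without WT replicate 1 the change of MRPS10 went from 0.15 to 0.05 and that of MRPS35 from 0.16 to 0.06. MRPL49, for example, was at 2931, 3244 and 3159.5 normalised counts in the WT libraries and at 2560.1, 3133 and 2709 in the KO libraries. MRPL16 was at 786, 763 and 876 in WT and at 851, 961 and 980.0 in POLDIP2 KO. The KO values of MRPL49 reached into the WT range through replicate 2, and those of MRPL16 through replicate 1.

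The 3 human relatives of one bacterial small subunit protein, MRPS18A, MRPS18B and MRPS18C, occupy different places in the ribosome, MRPS18A in the large and the others in the small subunit. MRPS18A was steady, at 1028 ± 85.2 normalised counts in WT and 1021 ± 30.8 in the KO line (mean ± SD, n = 3). MRPS18B was at 827, 334 and 1011 in WT and at 716, 663 and 806 in POLDIP2 KO, so that WT replicate 2 stood far below the other libraries. Its log2 fold change was 0.15 with that library and -0.33 without it. MRPS18C was at 533 ± 82.0 and 577 ± 47.5. MRPS30, the other gene whose symbol differs from its subunit, was at 1517 ± 163 in WT and 1474 ± 197 in POLDIP2 KO, and MRPS36 at 573 ± 82.8 and 663 ± 145.

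Some genes that every cell with mitochondria uses were listed at or near 0. MRPL45, whose protein ties the ribosome to the inner membrane beside the exit of the nascent chain, was at 0, 26.1 and 0 normalised counts in the WT libraries and at 76.3, 0 and 11.9 in the KO libraries. Its mean of 19.0 put it just inside the filter, and its interval from -2.82 to 6.29 on the log2 scale leaves the direction undetermined. MRPS12, a protein of the decoding centre, was at 0 in all WT libraries and at 6.15, 0 and 13.9 in POLDIP2 KO, and its mean of 3.34 left it outside the filter. SARS2, which is read in the opposite direction beside MRPS12, was at 209, 0 and 74.1 in WT and at 0, 0 and 41.7 in POLDIP2 KO, and the cytosolic ribosomal protein gene RPS9 was at 0 in all libraries but WT replicate 3. The table holds 3750 identifiers without a name in GENCODE release 44, of which 885 passed the filter, and whether reads of these genes stand under other identifiers was not tested.

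**Figure D3:**
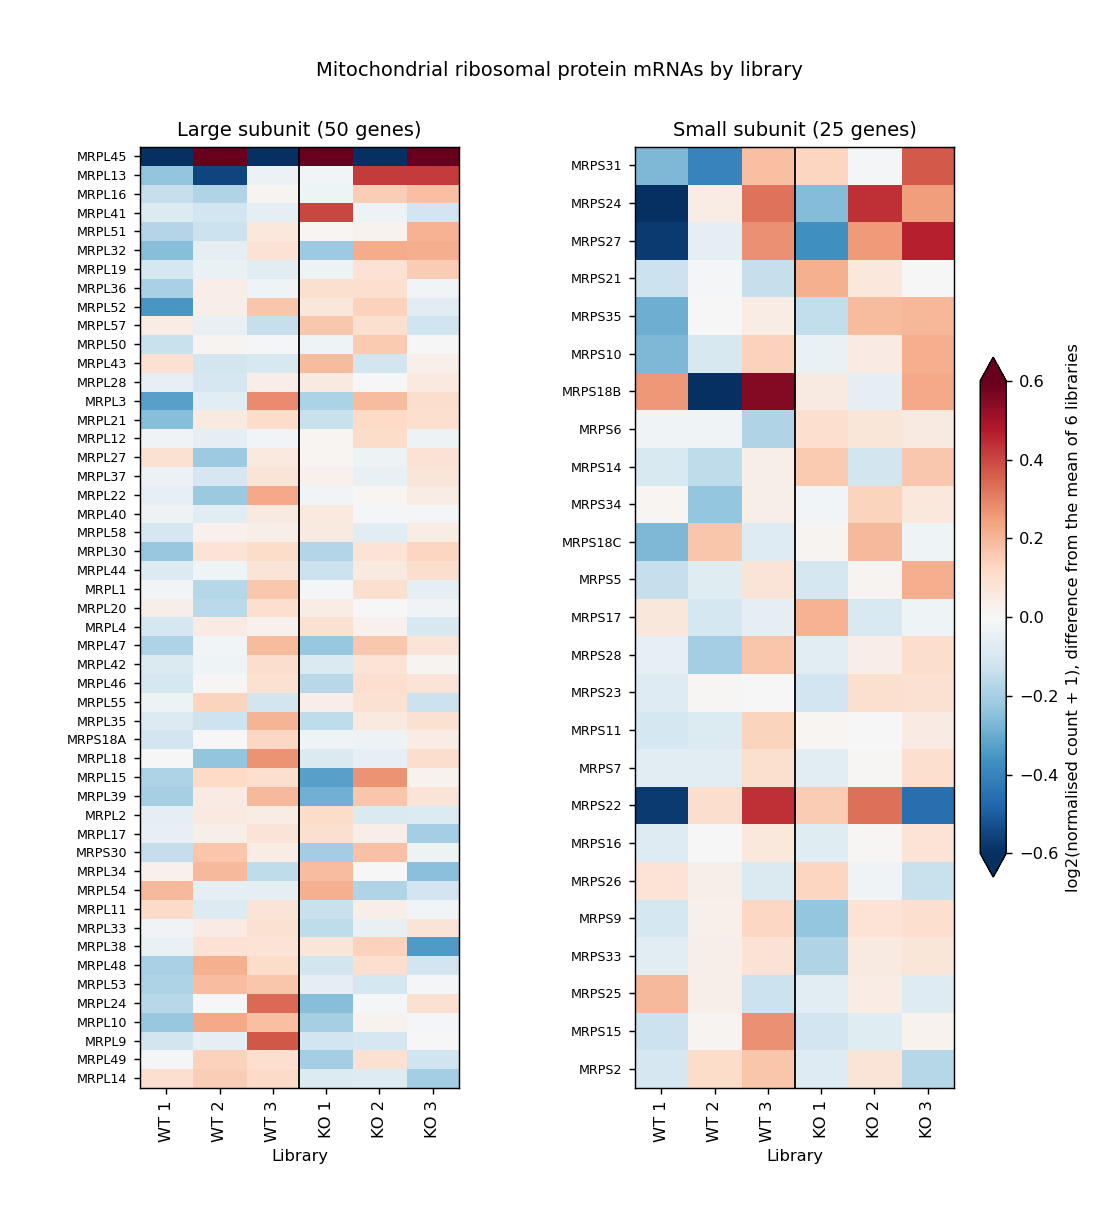
Each row is 1 gene and each column 1 library, with the colour giving log2(normalised count + 1) minus the mean of that gene over the 6 libraries (values past 0.6 in either direction are drawn at the end of the scale), large subunit on the left and small subunit on the right, ordered by log2 fold change. Few rows separate WT from POLDIP2 KO, MRPL13 and MRPL14 among them, while WT replicate 1 is pale to dark blue for most genes. Measured instead against the mean of the WT line, 59 of all 76 genes, a set that includes MRPS36 (not drawn), were below it there.

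The libraries were next compared by replicate number, in a fit of line plus replicate number. None of the 76 genes was called at an adjusted p of 0.05 by limma, against 0.913% of all genes. At an unadjusted p under 0.05 there were 10 (13.2%, against 18.9% of all genes), namely MRPL3, MRPL15, MRPL24, MRPL30 and MRPL32 of the large subunit and MRPS10, MRPS24, MRPS27, MRPS31 and MRPS35 of the small subunit. A likelihood ratio test in DESeq2 on the recovered reads called 2 of them after adjustment, MRPS27 (adjusted p = 1.27e-09) and MRPS24 (adjusted p = 0.00221), which limma with Benjamini-Hochberg adjustment placed at 0.0574 and 0.135. The share of all genes that this DESeq2 test called is not given here, so the 2 cannot be set against it.

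MRPS27 (ENSG00000113048, chr5:72214953-72321717), a small subunit protein with pentatricopeptide repeats, varied most clearly with the number. It was at 2798, 4023 and 5041 normalised counts in WT replicates 1 to 3 and at 3237, 4985 and 5762 in POLDIP2 KO replicates 1 to 3. Both lines thus had the same order of libraries, and the distance between the lowest and highest replicate of a line exceeded the distance between the lines at any number. MRPS24 (ENSG00000062582, chr7:43866558-43869893) was at 1032, 1853 and 2256 in WT and at 1505, 2439 and 2145 in POLDIP2 KO, lowest in replicate 1 of both. The read-through gene URGCP-MRPS24 covers MRPS24 on the same strand, so its assigned reads are uncertain. With the replicate number as a block, MRPS27 and MRPS31 joined MRPL13 and MRPL14 at an unadjusted p under 0.05 (4 of 76, 5.26%, against 11.1% of all genes), with 0 of the 76 called after adjustment (0.204% of all genes).

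Replicate 1 was the lowest library of both lines for 30 of the 76 genes (39.5%, against 20.5% of all genes), replicate 2 for 10 (13.2%, against 13.3%) and replicate 3 for 7 (9.21%, against 12.4%). On the log2 scale, the median gene lay 0.08 below its line's mean in WT replicate 1 and 0.05 below it in POLDIP2 KO replicate 1, so the shift was small. It was shared by both subunits, with medians of -0.08 and -0.08 for large and small subunit genes in WT replicate 1, and -0.04 and -0.06 in POLDIP2 KO replicate 1. Cytosolic ribosomal protein genes moved further in the same libraries, with medians of -0.22 in WT replicate 1 and -0.15 in POLDIP2 KO replicate 1. Of these, 40 of 74 passed an unadjusted p under 0.05 by replicate number, as did 10 of 13 mitochondrially encoded mRNAs, 3 of 73 nuclear respiratory chain genes and 0 of 10 proliferation genes, against 18.9% of all genes. After adjustment none of these lists held a gene called by limma, against 0.913% of all genes.

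**Figure D4:**
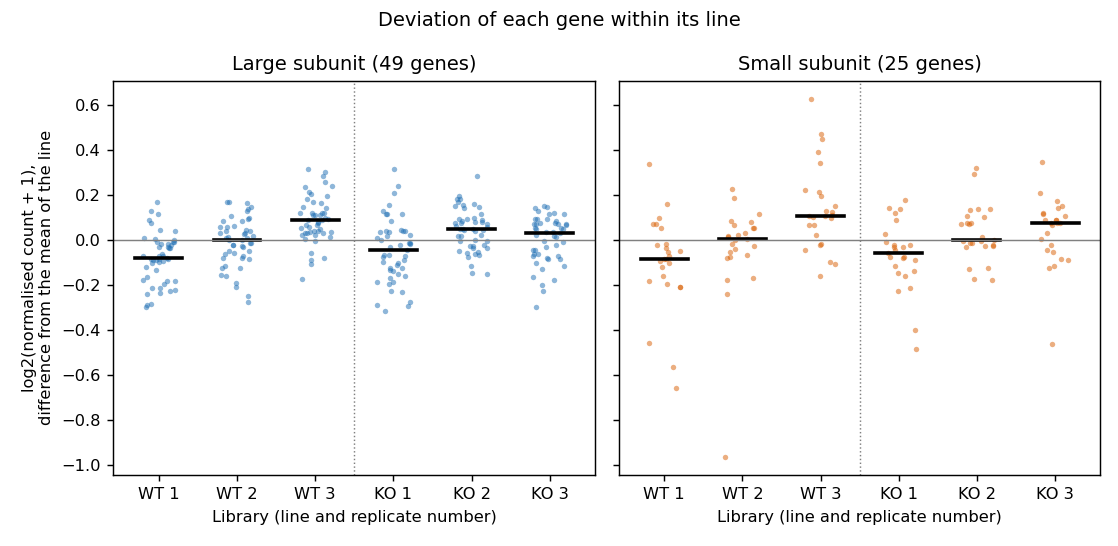
Each point is 1 gene (49 large subunit genes without MRPL45 on the left, 25 small subunit genes on the right), plotted by library (x axis) against its log2(normalised count + 1) minus the mean of its line (y axis); black bars are medians. In both subunits the bars of WT replicate 1 and POLDIP2 KO replicate 1 lie below 0, and the lowest point on the right, in WT replicate 2, is MRPS18B.

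Levels were compared between genes per kilobase of the canonical transcript. The median level over the 76 genes was 1012 normalised counts per kilobase, with 1092 for the large and 906 for the small subunit. In the large subunit the order ran from MRPL33 (4479 ± 178 in WT and 4244 ± 334 in the KO line, mean ± SD, n = 3) through MRPL51 (3102 ± 280.1 and 3461 ± 272), MRPL37 (2407 ± 153 and 2473 ± 101) and MRPL3 (2387 ± 509 and 2483 ± 332) to MRPL22, MRPL50, MRPL42 and MRPL45 at the low end. MRPL33 lay above MRPL51 in all libraries, while MRPL37 and MRPL3 did not differ beyond their spread. MRPL42 was at 149 ± 10.4 in WT and 149 ± 8.53 in POLDIP2 KO.

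In the small subunit the highest levels per kilobase were those of MRPS24 (2569 ± 936 in WT), MRPS6 (2409 ± 149), MRPS15 (2159 ± 310.4) and MRPS34 (1976 ± 195), and neighbours in this order overlapped. The lowest were those of MRPS25 (311 ± 34.7), MRPS11 (297 ± 27.9), MRPS23 (278 ± 8.48) and MRPS33 (273 ± 14.6). Between the lower and the upper quartile the levels differed 2.13-fold in the large subunit and 4.66-fold in the small subunit. This order depends on the transcript taken as the length. A protein-coding gene overlaps 13 of the 76 genes on the same strand, among them MRPL33 (BABAM2), MRPS24 and MRPS6 (SLC5A3), and the levels of these are uncertain. With the total length of all exons the median became 516, the order of the subunits turned (516 for the large and 553 for the small), MRPL14 led the large and MRPS34 the small subunit, and the lowest small subunit gene was MRPS22.

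**Figure D5:**
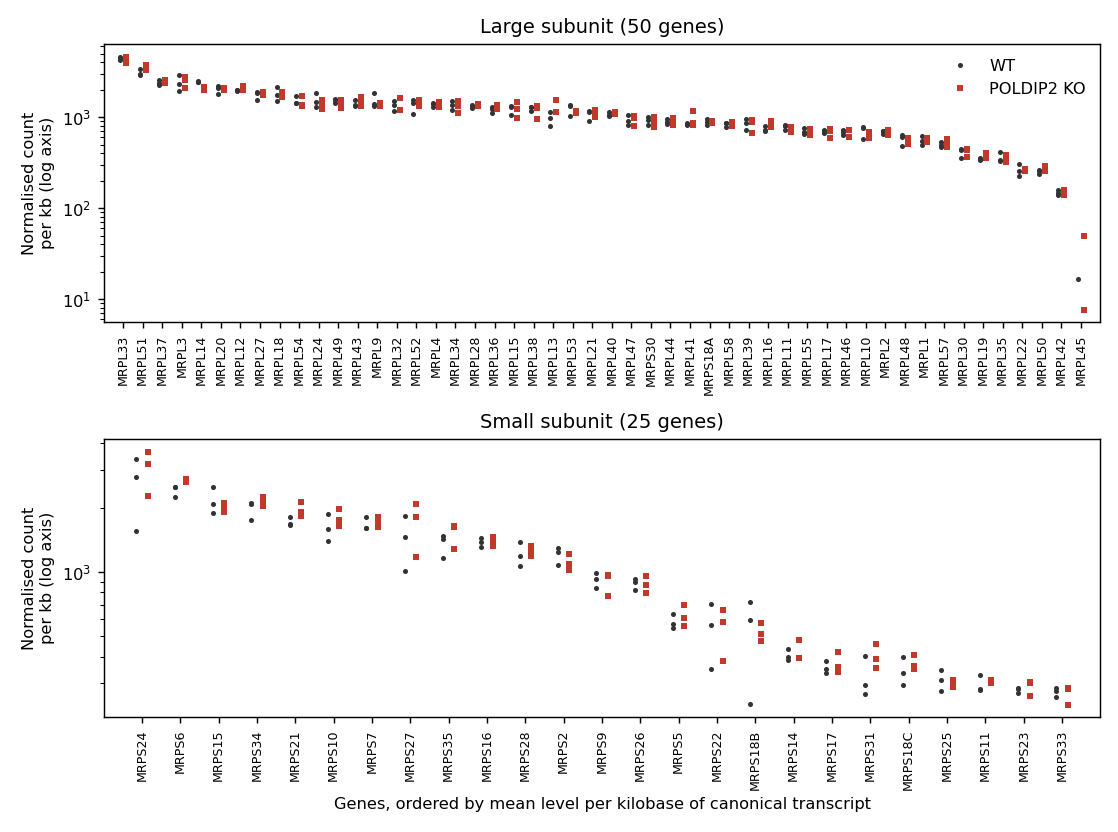
Normalised counts per kilobase of canonical transcript (log axis) for each large subunit gene (top) and small subunit gene (bottom), ordered by mean level, with 3 WT libraries as dark circles and 3 POLDIP2 KO libraries as red squares; values of 0 are not drawn. Levels fall from 4361 for MRPL33 to 149 for MRPL42 and 12.3 for MRPL45, and the symbols of both lines lie together for most genes.

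Genes that start beside a mitochondrial ribosomal protein gene, in what may be a shared promoter region, were also read. For 16 of the 76 genes a protein-coding gene on the other strand starts within 1000 bases. Of 17 such partners tested, 0 passed an unadjusted p under 0.05 by limma, against 6.48% of all genes. The 17 include MRPL46 and MRPS11, each counted as the other's partner. They are too few for the 0 to decide whether partners change together. The partner closest to that level was APBA3, beside MRPL54, with a log2 fold change of -0.35. MRPL46 and MRPS11, whose starts are 63 bases apart, form a pair in which both partners belong to the ribosome, one in each subunit. Their log2 fold changes were 0.01 and 0.04. MRPL36 and MRPL47 each share such a region with a complex I gene, NDUFS6 and NDUFB5, at a distance of 41 bases.

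The other genes of mitochondrial translation were read from fixed lists. The 5 ribosomal proteins with other symbols did not pass an unadjusted p of 0.05, and their log2 fold changes ran from -0.08 for AURKAIP1 to 0.10 for CHCHD1. PTCD3, a small subunit protein, was at 3964, 2167 and 3584 normalised counts in the WT libraries and at 3142, 3132 and 3052 in the KO libraries, and was thus low in WT replicate 2, as MRPS18B was. None of 28 genes of ribosome assembly and rRNA processing, 16 translation factors or 19 mitochondrial aminoacyl-tRNA synthetases tested passed an unadjusted p of 0.05. Closest to that level were YARS2, which charges the tyrosine tRNA (log2 fold change 0.33, interval from -0.06 to 0.73), and the initiation factor MTIF3 (0.26, interval from -0.08 to 0.60).

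The mRNAs that the mitochondrial ribosome translates were read beside the mRNAs that encode its proteins. Of the 13 mitochondrially encoded mRNAs, 3 passed an unadjusted p under 0.05, all higher in POLDIP2 KO (against 3.00% of all genes in that direction), and 0 passed after adjustment. MT-ND5, a complex I subunit, was at 122343, 111186 and 114778 normalised counts in the WT libraries and at 158459, 148209 and 154691 in the KO libraries (log2 fold change 0.41, limma with Benjamini-Hochberg adjusted p = 0.599). The others were MT-ND4L (0.47) and MT-CYB (0.38), and the median over the 13 was 0.32, beside 0.02 over the 76 ribosomal protein genes. The difference between the groups was not tested. Of the 13 mRNAs, 11 lay above 0 and 2 below. Their summed counts made up 5.02% ± 0.67 of the WT libraries and 5.51% ± 0.82 of the KO libraries (mean ± SD, n = 3). Single libraries ran from 4.28% to 5.57% in WT and from 4.70% to 6.35% in POLDIP2 KO, so the lines overlapped. By replicate number, 10 of these 13 were at an unadjusted p under 0.05 and 0 passed after adjustment.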

How the data were processed

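Stranded mRNA libraries of WT and POLDIP2 KO ARPE-19 cells (n = 3 each), grouped by the genotype in the labels, were analysed. The authors deposited 1 signal per gene and library, namely gene counts from Salmon 1.8 and tximport on GRCh38 that were divided by size factors of DESeq2 1.34.0. The annotation release is not given in the sources used here. All value columns were used (0 left out). Every value was a whole multiple of its column's smallest step within a tolerance of 0.001, and reads were recovered by dividing by that step. Where it is near 1 (WT replicate 2, POLDIP2 KO replicate 3), this check carries little weight.

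Changes were tested by limma 3.58.1 (R 4.3.3) on log2(normalised count + 1), which understates changes of low genes, over the 14684 genes that averaged 10 or more. The fit used lmFit and eBayes, trend included (prior df 3.02), with 95% intervals and Benjamini-Hochberg adjustment at 0.05. Replicate number was tested by the moderated F test in a fit of line plus number. On simulated data limma recovered 34.3%, 94.0% and 100% of genes changed 1.5-, 2- and 4-fold among 14615. The simulation gave every gene the same dispersion and held no replicate effect.

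The members and lists were chosen with earlier results of these data known. Named genes were the 12 with the smallest p-values between the lines, the 4 highest and lowest per kilobase in each subunit, those near the filter, MRPS30, MRPS36, the MRPS18 genes and MRPL13, the genes of small counts, and in each list the 3 with the smallest p. MRPS22, MRPS24, MRPS27 and the neighbours of MRPL13 were named after their values were seen. Subunits follow the known structure and matched the RefSeq systematic names for 73 genes, with 2 lacking one and 0 against.

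Deviations from the line means were correlated over 14684 genes. Same-numbered WT and POLDIP2 KO libraries gave 0.315, 0.137 and 0.129, other combinations -0.259 to 0.147. All 3 same-numbered pairs exceeded 0.1, so the numbers were taken to pair the samples and served as a block in an alternative. The 0.147 belonged to WT replicate 3 with POLDIP2 KO replicate 2 and was above the same-numbered 0.137 and 0.129, so the pairing is uncertain. Over 75 members (MRPL45 left out after seeing the data) the same-numbered values were 0.499, 0.472 and 0.387, and values within a line sum to 0, so these depend on one another. Other alternatives were pseudocounts of 0.5 and 5, filters of none and 50, quantile normalisation, recentring, eBayes without trend or robust, edgeR 4.0.16 and DESeq2 1.42.0 on recovered reads, and leaving out each library. MRPL23 and the mitochondrial ribosomal RNAs were not analysed here, and some genes of the lists are not reported here. Figures were drawn with matplotlib 3.10.9 in Python 3.11.15.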

Additional observations from a re-analysis of the deposited data

How the results depend on the processing

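The count of 0 members called after adjustment in the line comparison held under every alternative run, with a smallest adjusted p between 0.247 (DESeq2) and 1.00. At an unadjusted p under 0.05 the count of 2 fell to 1 with eBayes without trend and rose to 4 with the replicate block, whose pairing changed no other count for the members, and leaving out 1 library gave 0 to 2. It was 1 without WT replicate 1 and 0 without WT replicate 2, POLDIP2 KO replicate 2 or POLDIP2 KO replicate 3. By replicate number, DESeq2 called 2 members where limma called 0. The causes were not tested. The median log2 fold change stayed between 0.02 and 0.11 for the small subunit with 1 library left out, and between -0.03 and 0.06 for the large subunit. With 1 library left out, MRPS24 ranged from -0.040 (without WT replicate 1) to 0.52, and MRPS18B from -0.33 (without WT replicate 2) to 0.47, so both changed direction. The counts of genes above 0 with libraries left out or other scaling (50 with quantile normalisation, 51 with recentred libraries) were added after seeing the data. The level per kilobase moved from 1012 to 516 with the length of all exons. With 3 libraries per line, 34.3% of simulated 1.5-fold changes were recovered, so changes of that size or smaller can be missed.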

Other observations

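Regulators of nuclear genes for mitochondrial proteins were read as a list of 13 genes, none of which passed an unadjusted p of 0.05. GABPA, the DNA-binding subunit of an ETS factor that drives many such genes, was at 1675, 1499 and 1646 normalised counts in the WT libraries. It was at 1687, 1718 and 1936 in the KO libraries (log2 fold change 0.15). The lines did not overlap, as in 5.46% of all genes in that direction, but the lowest KO library was close to the highest WT library. GABPB2, which encodes a partner subunit, had a log2 fold change of -0.28 and PPARGC1A, a coactivator of mitochondrial biogenesis, one of 0.27, and both overlapped between the lines.

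Of the nuclear respiratory chain genes, NDUFB9, which encodes a complex I subunit and lies on chromosome 8 as MRPL13 does, was at 2033, 2311 and 2755 normalised counts in the WT libraries and at 3109, 3516 and 3733 in the KO libraries (log2 fold change 0.55, limma with Benjamini-Hochberg adjusted p = 0.323). Cytosolic ribosomal proteins had 0 of 74 genes at an unadjusted p under 0.05, with RPL36A at a log2 fold change of 0.27 and RPS24 at 0.14. Of 10 proliferation genes 0 passed, with 9 below 0 and a median of -0.13, and AURKA, CDK1 and CCNB1 at -0.31, -0.18 and -0.22. Their summed normalised counts were 72999, 50660 and 78286 in WT and 53582, 66938 and 62890 in POLDIP2 KO, so the lines overlapped, with all 10 genes below their line's mean in WT replicate 2 and 9 of 10 in POLDIP2 KO replicate 1.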
